A study of Homo sapiens with 12 samples.

Results

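The 35 genes described here encode proteins of homologous recombination, the Fanconi anemia pathway, mismatch repair and the checkpoint kinases that act with them. They are the table rows with the symbols BRCA1, BRCA2, PALB2, BARD1, RAD51C, RAD51AP1, RAD54L, RAD54B, XRCC2, XRCC3, FANCA, FANCB, FANCC, FANCD2, FANCE, FANCF, FANCG, FANCI, FANCL, FANCM, BRIP1, BLM, EXO1, RBBP8, NBN, RAD50, ATM, ATR, CHEK1, CHEK2, MSH6, PMS2, UBE2T, TOPBP1 and CLSPN. All 35 were found among the 23583 features of the deposited tables, and all 35 passed the filter on low counts, which left 16946 features to test. RNA-seq had been run on 12 libraries from the human hepatocellular carcinoma lines Huh7 and HCCLM3. Each line carried either a control siRNA (si-NC) or an siRNA against circASH2, a circular RNA (si-circASH2), with 3 libraries in each of the 4 groups, in a study of metastasis. Every library thus came from siRNA-treated cells, and untreated cells are not analysed here. The labels give neither the time after transfection nor whether replicates were separate cultures, so p-values measure only how these libraries vary, and that variation may be technical.

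Library totals ran from 29006781 to 30858895 counts. Levels are given as CPM, counts scaled to a common library size with TMM, edgeR's correction for library composition, and changes as log2 fold changes ± SE from edgeR's quasi-likelihood test, with p-values adjusted over all 16946 features and a threshold of 0.05. The label of a hepatocyte-derived line was borne out in part: ALB stood at 9866 ± 268 CPM (SD, n = 3) in Huh7 si-NC but at 3.24 ± 1.06 CPM in HCCLM3 si-NC. The hepatocyte transcription factor HNF4A was at 242 ± 5.12 CPM in Huh7 si-NC and 94.9 ± 2.58 CPM in HCCLM3 si-NC. All 17 hepatocyte markers were called lower in HCCLM3 si-NC than in Huh7 si-NC, where 43.6% of all features were lower. The log2 fold changes of these markers ran from -17.0 to -0.58. Summed over 17 hepatocyte markers the level was 41589 to 41762 CPM in Huh7 si-NC and 334 to 342 CPM in HCCLM3 si-NC.

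Homologous recombination repairs a double-strand break from the sister chromatid: the broken ends are resected to single strands, a recombinase is loaded on them, and the filament invades the intact copy. The Fanconi pathway recognises interstrand crosslinks at stalled replication forks and marks them with ubiquitin so that they can be cut out and passed to recombination, while mismatch repair corrects base pairs that the replicative polymerases left wrong. Many of these genes are transcribed mostly in late G1 and S phase.

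In Huh7 most of the set was lower after the knockdown, and in HCCLM3 more members rose than fell. With si-circASH2 in Huh7, 24 of the 35 genes fell, 4 rose (FANCF, ATM, NBN and ATR) and 7 did not pass the test, where 15.1% of all features fell and 16.3% rose. The median log2 fold change of the 35 genes was -0.32, beside 0.01 over all features. In HCCLM3, 12 of the 35 rose, 2 fell (BARD1 and FANCL) and 21 did not pass, where 15.1% of all features rose and 15.5% fell; the median of the 35 genes was 0.10, beside 0 over all features. The summed level of the 35 genes was 1665 to 1747 CPM in the Huh7 si-NC libraries and 1392 to 1447 CPM with si-circASH2, and it was 1731 to 1762 CPM in HCCLM3 si-NC and 1794 to 1879 CPM with si-circASH2, so the groups did not overlap in either line. In bulk RNA a smaller share of cells that express a gene and less of its RNA per cell cannot be told apart.

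Counted library by library, 24 members had all 3 si-circASH2 values below all 3 si-NC values in Huh7 and 4 had them above, against 20.3% and 22.4% of all features. In HCCLM3, 14 members had the si-circASH2 libraries above and 3 below, against 21.8% and 21.9% of all features. The largest falls in Huh7 were those of EXO1, RAD54L, BLM, BARD1 and CHEK1, with log2 falls of 0.50 to 0.67. The largest rises in HCCLM3, of RAD50, BRCA1, RAD54L and BRCA2, lay between 0.32 and 0.36.

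**Figure D1:**
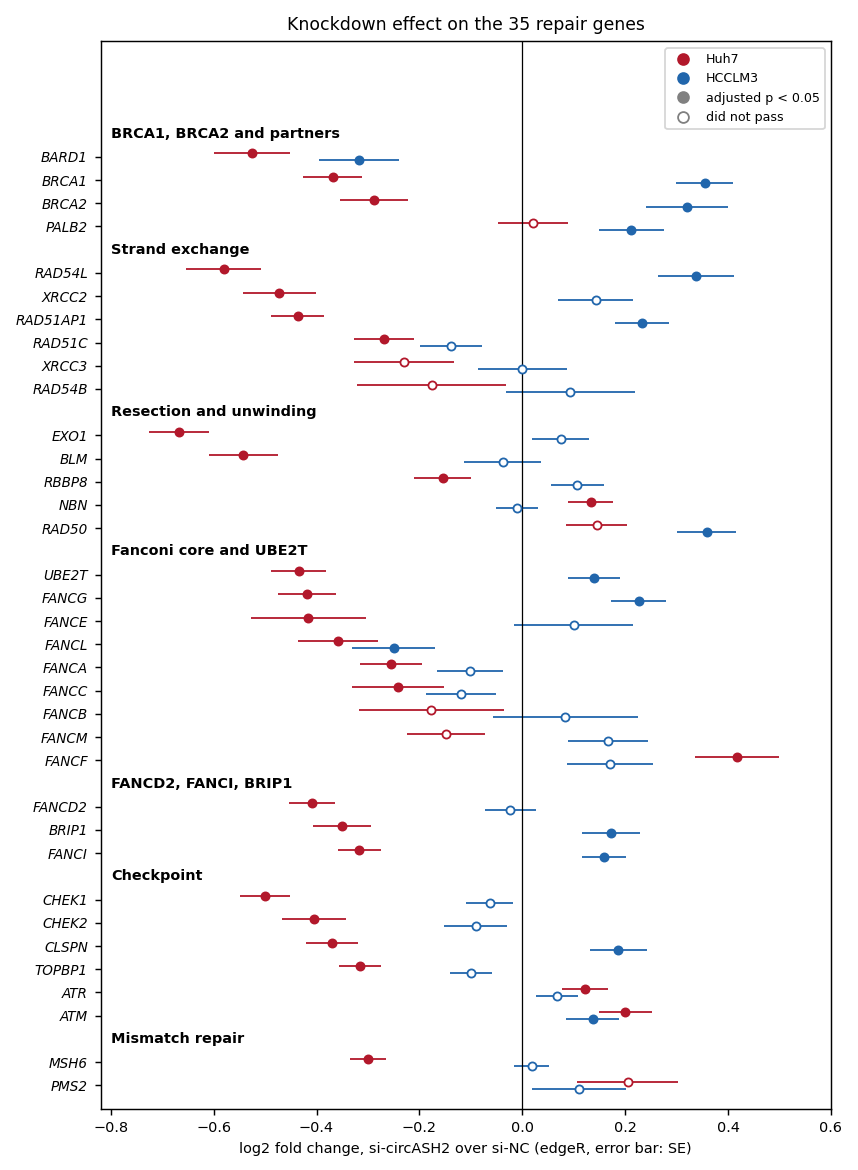
Log2 fold change ± SE of each of the 35 genes after si-circASH2 in Huh7 and in HCCLM3 (edgeR, 3 libraries per group), grouped by the protein's role, with filled points where the adjusted p was under 0.05. Huh7 points lie left of 0 for 28 genes, from -0.67 for EXO1 to 0.42 for FANCF, and HCCLM3 points lie right of 0 for 23 genes.

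In the BRCA complexes, BRCA1 and BRCA2 fell in Huh7 and rose in HCCLM3, while BARD1 fell in both. BRCA1, a ubiquitin ligase that promotes end resection and lies on chromosome 17 (43044295 to 43170245 in GRCh38), stood at 54.7, 53.2 and 48.3 CPM in the Huh7 si-NC libraries and at 37.9, 42.2 and 40.8 CPM with si-circASH2, a log2 fold change of -0.37 ± 0.06 (adjusted p = 2.4e-05). Its HCCLM3 libraries held 54.3, 56.8 and 56.0 CPM with si-NC and 76.8, 69.2 and 67.6 CPM with si-circASH2, a change of 0.35 ± 0.06 (adjusted p = 2.59e-05). In both lines the si-NC and si-circASH2 values of BRCA1 were apart, in Huh7 downwards and in HCCLM3 upwards. BRCA2, which loads the recombinase onto resected DNA, had 63.0, 60.1 and 56.0 CPM in Huh7 si-NC and 47.2, 48.9 and 50.5 CPM after the knockdown (-0.29 ± 0.07, adjusted p = 0.00159). The same gene was far lower in HCCLM3, at 14.4, 16.7 and 14.0 CPM with si-NC, and rose to 18.6, 20.7 and 16.9 CPM (0.32 ± 0.08, adjusted p = 0.00344, which became 0.0501 to 0.0565 with limma on FPKM in 2 of 3 settings). All 3 treated libraries were above the 3 controls there. PALB2, the bridge between BRCA1 and BRCA2, did not pass in Huh7 (0.02 ± 0.07) and rose in HCCLM3 (0.21 ± 0.06, adjusted p = 0.0119), a call lost without HCCLM3 si-circASH2 replicate 3 (0.0615).

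BARD1, the obligate partner of BRCA1, fell in both lines. It stood at 28.3, 26.4 and 26.9 CPM in Huh7 si-NC and 17.8, 17.8 and 21.1 CPM with si-circASH2 (-0.53 ± 0.07, adjusted p = 6.56e-06). Its HCCLM3 values were 20.1, 18.5 and 18.0 CPM and 15.7, 14.3 and 15.4 CPM (-0.32 ± 0.08, adjusted p = 0.00293). The treated libraries were below the controls in both lines, while its partner BRCA1 was above them in HCCLM3. FANCL, the ubiquitin ligase subunit of the Fanconi core complex, was the other member that fell in both: from 26.8, 25.0 and 24.8 to 21.5, 19.4 and 18.9 CPM in Huh7 (-0.36 ± 0.08, adjusted p = 0.000883) and from 19.9, 20.5 and 17.9 to 18.1, 14.9 and 16.0 CPM in HCCLM3 (-0.25 ± 0.08, adjusted p = 0.0205). The FANCL groups were apart in Huh7, and in HCCLM3 treated library 1 lay above control library 3. Its call in HCCLM3 was lost without HCCLM3 si-NC replicates 1 (0.0701) and 2 (0.0932) and HCCLM3 si-circASH2 replicates 2 (0.139) and 3 (0.0629), and with limma on FPKM (0.0591 to 0.0839 over 3 settings). These 2 of 35 members stand beside 5.71% of all features that fell in both lines, which is the same share. The changes of BARD1 and FANCL did not pass the test of a difference between the lines (adjusted p = 0.190 and 0.570).

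The octamer TTATACCA, which an earlier analysis of these same libraries had singled out, its heptamers TTATACC and TATACCA, and the octamer TCGGAGAA were searched for in the 3′ UTRs of GENCODE 29 (GRCh38). TTATACCA occurs in BARD1, FANCL and BLM, 3 of 35 members (8.57%), beside 3.37% of 19428 genes with an annotated 3′ UTR; BLM is named after its values were seen. The heptamer TATACCA occurs in the same 3 members (8.57%), beside 8.81% of genes, and TTATACC in these and MSH6 (11.4%), beside 7.91% of genes. TCGGAGAA occurs in 0 members and in 0.649% of genes. Because TTATACCA was singled out from these libraries, its presence in members that fell in them is not independent evidence. The 3 sites are printed below in 5′ to 3′ direction on the transcribed strand, with the octamer in capitals and the bases around it in lower case. The BARD1 site lies at chr2:214728654-214728683 (minus strand), the BLM site at chr15:90815350-90815379 (plus strand) and the FANCL site at chr2:58159503-58159532 (minus strand).
BARD1: acagctgaataTTATACCAgatgaacattt
BLM: tgttattcttgTTATACCAtttgaagtttt
FANCL: tggaagtgtatTTATACCAagatggagatc
A match is a description of these letters and was not tested as a binding site. The octamer is absent from the annotated 3′ UTRs of the other 32 members.

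Of the strand-exchange genes, RAD54L and RAD51AP1 fell in Huh7 and rose in HCCLM3. RAD54L, a DNA translocase that helps the filament invade, encoded on chromosome 1 (46247688 to 46278473), stood at 31.5, 28.6 and 25.8 CPM in Huh7 si-NC and 18.4, 20.2 and 18.9 CPM with si-circASH2 (-0.58 ± 0.07, adjusted p = 1.35e-06). In HCCLM3 its values were 19.5, 20.0 and 18.7 CPM and 24.0, 25.9 and 23.5 CPM (0.34 ± 0.07, adjusted p = 0.00109). With si-NC RAD54L was higher in Huh7, and with si-circASH2 all 3 HCCLM3 libraries were above all 3 Huh7 libraries. RAD51AP1, which stimulates strand pairing, went from 70.7, 67.7 and 67.6 to 48.4, 50.2 and 53.6 CPM in Huh7 (-0.44 ± 0.05, adjusted p = 5.69e-07) and from 52.3, 55.0 and 55.4 to 67.0, 65.4 and 58.8 CPM in HCCLM3 (0.23 ± 0.05, adjusted p = 0.00129). Its groups did not overlap in either line. Among the recombinase paralogs, XRCC2 (-0.47 ± 0.07) and RAD51C (-0.27 ± 0.06) fell in Huh7 and neither passed in HCCLM3 (0.14 ± 0.07 and -0.14 ± 0.06). XRCC3, another paralog, and RAD54B, a relative of RAD54L, did not pass in either line; in Huh7 they had -0.23 ± 0.10 and -0.18 ± 0.15. In that line XRCC3 passed without Huh7 si-circASH2 replicate 3 (0.0273) and RAD54B without Huh7 si-NC replicate 2 (0.0451).

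Among the nucleases and helicases that process broken ends, EXO1 fell most of all 35 genes in Huh7. This exonuclease, which acts in end resection and in mismatch repair and is encoded on chromosome 1 (241847967 to 241895148), stood at 42.2, 43.1 and 40.5 CPM in Huh7 si-NC and at 23.8, 28.7 and 26.7 CPM with si-circASH2 (-0.67 ± 0.06, adjusted p = 5.32e-09). In HCCLM3 the EXO1 values were 47.6, 48.2 and 48.6 CPM and 51.5, 49.9 and 50.7 CPM (0.07 ± 0.06, adjusted p = 0.345). The EXO1 groups did not overlap in either line, but in HCCLM3 they lay close together and the change did not pass. BLM, the helicase lost in Bloom syndrome, fell in Huh7 (-0.54 ± 0.07, adjusted p = 1.03e-06), with -0.04 ± 0.08 in HCCLM3. RAD50 and NBN, subunits of the complex that first binds broken ends, did not follow EXO1. RAD50 rose in HCCLM3 from 58.6, 50.6 and 52.3 to 72.7, 70.1 and 64.3 CPM (0.36 ± 0.06, adjusted p = 3.33e-05), and its Huh7 libraries held 46.8, 46.4 and 48.2 CPM with si-NC and 49.6, 55.4 and 51.2 CPM with si-circASH2 (0.14 ± 0.06, adjusted p = 0.0645). The RAD50 value in Huh7 passed without Huh7 si-circASH2 replicate 1 (0.0395), HCCLM3 si-NC replicate 1 (0.0435) and HCCLM3 si-circASH2 replicate 3 (0.0494), and with upper quartile factors (0.0402). NBN rose slightly in Huh7, from 63.9, 65.4 and 66.9 to 66.5, 73.8 and 75.0 CPM (0.13 ± 0.04, adjusted p = 0.0232), and had 179, 181 and 179.6 and 183, 177 and 176 CPM in HCCLM3 (-0.01 ± 0.04). The NBN groups overlapped in both lines. That NBN call was lost without Huh7 si-NC replicates 1 (0.0949) and 2 (0.0609) and Huh7 si-circASH2 replicates 2 (0.0976) and 3 (0.138), and with a fit of each line by itself (0.0835) and limma on FPKM (0.116 to 0.142 over 3 settings). RBBP8, which encodes the resection factor CtIP, fell by 0.15 in Huh7 (adjusted p = 0.0375) and had 0.11 ± 0.05 in HCCLM3 (adjusted p = 0.120). Its Huh7 call was lost without Huh7 si-NC replicates 1 (0.194) and 2 (0.0995), Huh7 si-circASH2 replicates 1 (0.155) and 3 (0.0707) and HCCLM3 si-circASH2 replicate 1 (0.0503), and with upper quartile factors (0.0592) and limma on FPKM (0.0747 to 0.103 over 3 settings), while the HCCLM3 value passed without HCCLM3 si-circASH2 replicate 3 (0.0385).

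**Figure D2:**
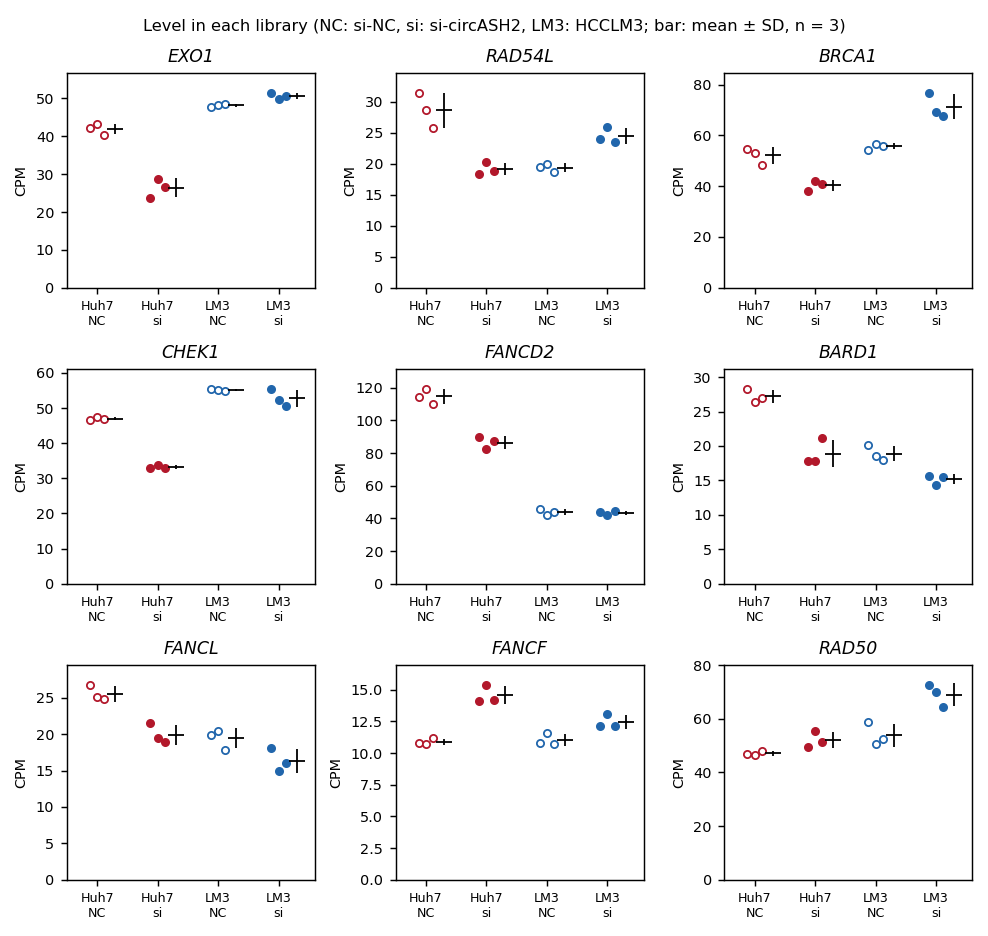
TMM-scaled CPM of named members in each of the 12 libraries (points), with the mean and SD of the 3 libraries of each group; each vertical axis starts at 0. RAD54L lies lower with si-circASH2 in Huh7 and higher in HCCLM3, BARD1 lies lower in both lines, and the EXO1 groups are wide apart in Huh7 and close in HCCLM3.

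The Fanconi core complex places ubiquitin on the FANCD2 and FANCI pair. The 9 members listed here include UBE2T, the ubiquitin-conjugating enzyme it works with. In Huh7 6 of them fell, 1 rose and 2 did not pass, where 15.1% of all features fell and 16.3% rose. In Huh7 8 of the 9 log2 fold changes were below 0. In HCCLM3 2 rose, 1 fell and 6 did not pass, where 15.1% of all features rose and 15.5% fell. UBE2T fell by 0.43 in Huh7 (adjusted p = 1e-06) and rose by 0.14 in HCCLM3 (adjusted p = 0.0421). FANCG, a scaffold subunit, fell by 0.42 in Huh7 (adjusted p = 3.36e-06) and rose by 0.23 in HCCLM3 (adjusted p = 0.00245). The UBE2T rise in HCCLM3 was lost without HCCLM3 si-NC replicates 1 (0.153) and 2 (0.131) and HCCLM3 si-circASH2 replicates 1 (0.157), 2 (0.0547) and 3 (0.0848), and with no filter on low counts (0.0509) and limma on FPKM (0.0505 to 0.0685 over 3 settings). FANCE (-0.42 ± 0.11), FANCA (-0.26 ± 0.06) and FANCC (-0.24 ± 0.09) also fell in Huh7 and did not pass in HCCLM3, and FANCB and FANCM passed in neither line. The FANCC call, at an adjusted p of 0.0423, was lost without Huh7 si-NC replicates 2 (0.124) and 3 (0.0968), Huh7 si-circASH2 replicate 1 (0.224), HCCLM3 si-NC replicates 1 (0.0551), 2 (0.0524) and 3 (0.05002) and HCCLM3 si-circASH2 replicates 1 (0.0539) and 3 (0.0529), and with DESeq2 (0.0608), upper quartile factors (0.0594) and a fit of each line by itself (0.0963).

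FANCF, the adaptor that holds the core complex together, was the member that rose most in Huh7. Its libraries held 10.8, 10.7 and 11.2 CPM with si-NC and 14.1, 15.4 and 14.2 CPM with si-circASH2 (0.42 ± 0.08, adjusted p = 0.000348). In HCCLM3 they held 10.8, 11.6 and 10.8 and 12.1, 13.1 and 12.2 CPM (0.17 ± 0.08, adjusted p = 0.131). FANCF was thus higher in all 3 treated Huh7 libraries while its partners FANCG, FANCE and FANCA were lower. FANCF, on chromosome 11 (22622890 to 22625841), shares exon sequence with GAS2 on the other strand, and the sources used here do not give whether counting used strand. In all, 17 of the 35 genes overlap an exon of an antisense gene in GENCODE 29. Reads within the shared stretch could not be assigned to either gene without strand, and the length of that stretch was not measured.

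FANCD2 and FANCI form the clamp that the core complex ubiquitinates on DNA, and BRIP1 is a helicase bound to BRCA1. All of these fell in Huh7. FANCD2 stood at 114.6, 119.4 and 110.3 CPM with si-NC and 89.8, 82.3 and 87.2 CPM with si-circASH2 in Huh7 (-0.41 ± 0.05, adjusted p = 1.9e-07), and at 46.0, 42.0 and 44.1 and 43.7, 41.9 and 44.4 CPM in HCCLM3 (-0.02 ± 0.05, adjusted p = 0.797). FANCI went from 152, 146 and 143 to 115, 125 and 114 CPM in Huh7 (-0.32 ± 0.04, adjusted p = 2.17e-06) and from 77.0, 80.1 and 78.2 to 86.2, 87.4 and 89.0 CPM in HCCLM3 (0.16 ± 0.04, adjusted p = 0.00617). Both members of the clamp thus fell in Huh7, and in HCCLM3 FANCI rose while FANCD2 did not pass. BRIP1 fell by 0.35 in Huh7 (adjusted p = 3.62e-05) and rose by 0.17 in HCCLM3 (adjusted p = 0.0222). The HCCLM3 call of BRIP1 was lost without HCCLM3 si-NC replicate 3 (0.101) and HCCLM3 si-circASH2 replicate 1 (0.110), and with limma on FPKM (0.0974 to 0.109 over 3 settings); that of FANCI was lost with limma on FPKM (0.0573 over all features above 0).

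The checkpoint kinases split by level: the apical kinases rose in Huh7 and the effector kinases fell. ATM, which senses double-strand breaks, stood at 70.1, 66.3 and 66.4 CPM in Huh7 si-NC and 73.4, 80.0 and 79.8 CPM with si-circASH2 (0.20 ± 0.05, adjusted p = 0.00410). In HCCLM3 it had 72.3, 68.8 and 61.9 and 76.0, 75.4 and 71.8 CPM (0.14 ± 0.05, adjusted p = 0.0477), which made ATM the only 1 of the 35 that rose in both lines, where 5.64% of all features did so. The Huh7 call of ATM was lost with limma on FPKM (0.250 to 0.303 over 3 settings); the HCCLM3 call was lost without Huh7 si-NC replicates 1 (0.05002), 2 (0.0539) and 3 (0.0503), Huh7 si-circASH2 replicate 3 (0.0511), HCCLM3 si-NC replicates 2 (0.0713) and 3 (0.319) and HCCLM3 si-circASH2 replicates 1 (0.151) and 2 (0.115), and with DESeq2 (0.0541), no filter on low counts (0.0525) and limma on FPKM (0.224 to 0.273 over 3 settings). ATR, which responds to single-stranded DNA at stalled forks, went from 45.4, 42.9 and 44.6 to 47.8, 48.2 and 48.6 CPM in Huh7 (0.12 ± 0.04, adjusted p = 0.0411) and had 104, 107 and 98.6 and 111, 109 and 105 CPM in HCCLM3 (0.07 ± 0.04). The ATR call was lost without Huh7 si-NC replicates 2 (0.162) and 3 (0.0695), Huh7 si-circASH2 replicates 1 (0.0551), 2 (0.0784) and 3 (0.0999) and HCCLM3 si-circASH2 replicate 2 (0.0719), and with DESeq2 (0.0561), no filter on low counts (0.0893), a fit of each line by itself (0.120) and limma on FPKM (0.216 to 0.239 over 3 settings).

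CHEK1, the kinase that ATR activates, fell in Huh7 from 46.7, 47.4 and 46.8 to 32.9, 33.9 and 32.8 CPM (-0.50 ± 0.05, adjusted p = 2.41e-08) and held 55.5, 55.1 and 54.7 and 55.4, 52.2 and 50.6 CPM in HCCLM3 (-0.06 ± 0.05, adjusted p = 0.335). The CHEK1 groups were apart in Huh7 and overlapped in HCCLM3. CHEK2, the kinase that ATM activates, fell by 0.41 in Huh7 (adjusted p = 2.13e-05) with -0.09 ± 0.06 in HCCLM3. TOPBP1, the activator of ATR, fell by 0.32 in Huh7, and its HCCLM3 value of -0.10 ± 0.04 (adjusted p = 0.0682) passed without HCCLM3 si-circASH2 replicate 1 (0.0209) and with a fit of each line by itself (0.0440). CLSPN, which encodes claspin, the adaptor between ATR and CHEK1, fell by 0.37 in Huh7 (adjusted p = 4.46e-06) and rose by 0.19 in HCCLM3 (adjusted p = 0.0123). That rise was lost without HCCLM3 si-NC replicates 1 (0.0590) and 3 (0.0691) and HCCLM3 si-circASH2 replicate 2 (0.0546). CLSPN stood at 63.4, 64.6 and 62.6 CPM in Huh7 si-NC and 48.1, 51.0 and 48.4 CPM with si-circASH2. In HCCLM3 it had 27.8, 30.4 and 27.3 CPM with si-NC and 32.8, 33.5 and 30.8 CPM with si-circASH2.

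Of the mismatch repair genes, MSH6, a subunit of the heterodimer that recognises mismatches, fell in Huh7 from 170.1, 170.4 and 165 to 135, 141 and 134 CPM (-0.30 ± 0.03, adjusted p = 3.77e-07). In HCCLM3 it had 197, 199 and 203 and 204, 201 and 201 CPM (0.02 ± 0.03, adjusted p = 0.763). The fall in Huh7 was small beside that of EXO1 but its 3 treated libraries lay well below the controls. PMS2, the endonuclease subunit, passed in neither line (0.21 ± 0.10 and 0.11 ± 0.09). It has 11 named pseudogenes in GENCODE 29, and the sources used here do not give how reads shared with them were counted. CHEK2, FANCD2, RAD51AP1 and RBBP8 also have named pseudogenes there.

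The response differed between the lines for 20 of the 35 genes, always in the same direction. The difference is the HCCLM3 fold change minus the Huh7 fold change, tested as an interaction over all 12 libraries; it was above 0 and passed for 20 members and was below 0 and passed for none, where 9.6% of all features passed above 0 and 11.3% below. The median difference was 0.31 over the 35 genes and -0.02 over all features. RAD54L had the largest difference, 0.92 ± 0.10 (adjusted p = 6.46e-07). EXO1 (0.74 ± 0.08), BRCA1 (0.72 ± 0.08), RAD51AP1 (0.67 ± 0.07) and FANCG (0.65 ± 0.08) followed, with adjusted p-values of 3.64e-07, 4.64e-07, 4.12e-07 and 1.69e-06. For EXO1 the difference came from a fall in Huh7 alone by call, and for BRCA1 and RAD51AP1 from a fall in Huh7 and a rise in HCCLM3. A fall in Huh7 together with a rise in HCCLM3 was found for 9 members, BRCA1, BRCA2, FANCI, BRIP1, UBE2T, FANCG, CLSPN, RAD51AP1 and RAD54L, where 1.53% of all features did so. The Huh7 falls of these 9 were kept under every alternative run. In HCCLM3 the rises of BRCA1, RAD51AP1, RAD54L and FANCG were kept under every alternative run. Those of BRCA2, FANCI, BRIP1, UBE2T and CLSPN were lost in some of them, as given above. Of the 35, 0 rose in Huh7 and fell in HCCLM3, where 1.93% of all features did so.

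The difference passed for XRCC2 (0.61 ± 0.10), FANCD2 (0.39 ± 0.07), BLM (0.50 ± 0.10), MSH6 (0.32 ± 0.05), CHEK1 (0.44 ± 0.07) and TOPBP1 (0.22 ± 0.06), which had fallen by call in Huh7 alone. It did not pass for FANCA (0.15 ± 0.09, adjusted p = 0.246), RAD51C (0.13 ± 0.08, adjusted p = 0.304) or FANCC (0.12 ± 0.11, adjusted p = 0.511), which were also called lower in Huh7 alone. The CHEK1 difference was lost with limma on FPKM (0.246 to 0.310 over 3 settings); in FPKM, the authors' length-scaled level, CHEK1 had 13.6 ± 0.570 and 10.5 ± 0.533 in Huh7 and 16.0 ± 1.70 and 14.2 ± 1.30 in HCCLM3 (mean ± SD, n = 3; si-NC first). CHEK1 shares exon sequence with STT3A on its own strand. The CHEK2 difference (0.31 ± 0.09) was lost with limma on FPKM (0.0724 to 0.103 over 3 settings). FANCE (0.52 ± 0.16) lost its call without Huh7 si-NC replicates 1 (0.0501) and 2 (0.0758), Huh7 si-circASH2 replicate 3 (0.0600), HCCLM3 si-NC replicate 2 (0.0569) and HCCLM3 si-circASH2 replicate 1 (0.0679). FANCM (0.32 ± 0.11) lost it without Huh7 si-NC replicate 1 (0.135), Huh7 si-circASH2 replicates 1 (0.0938) and 2 (0.0892), HCCLM3 si-NC replicates 1 (0.0667) and 3 (0.109) and HCCLM3 si-circASH2 replicates 1 (0.103) and 3 (0.0541), and with limma on FPKM (0.411 to 0.466 over 3 settings). RBBP8 (0.26 ± 0.08) lost it without Huh7 si-NC replicate 1 (0.0553), and with limma on FPKM (0.0516 to 0.0722 over 3 settings). RAD50 (0.21 ± 0.08, adjusted p = 0.0664) passed without Huh7 si-circASH2 replicate 2 (0.0290), HCCLM3 si-NC replicate 1 (0.0201) and HCCLM3 si-circASH2 replicate 3 (0.0323), and NBN (-0.14 ± 0.06, adjusted p = 0.0981) passed below 0 without Huh7 si-circASH2 replicate 1 (0.0108).

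Promoter sequence was available in RefSeq (GRCh38.p14, 250 bases before to 50 after the gene start) for 32 of the 35 genes; RAD54B, FANCI and NBN had no entry. The promoters were searched on both strands for 3 forms of the E2F motif, TTTCCCGC, TTTGGCGC and TTTCGCGC. A stretch of 8 bases can hold only 1 of these forms. At least 1 of the forms lies in the promoters of 7 members (21.9% of the 32), beside 3.3% of 27305 genes with promoters of that length. These 27305 genes were not limited to the features tested here, whereas all members had passed the filter on low counts. Some genes have more than 1 promoter entry. Counted per entry, the shares were 15.6% of 45 entries of members and 2.74% of 35116 entries in all. No comparison was made with other genes transcribed in late G1 and S phase. All 7 fell in Huh7, and 6 of them passed in the difference between the lines, FANCC being the exception. Beside this, 24 of all 35 members fell in Huh7 and 20 passed in the difference. Whether the 7 differ from the other members was not tested. The 7 stretches are printed below, 30 bases each on the gene's own strand, because they include EXO1 and FANCD2, described above. The motif is in capitals, and is read as its reverse complement where it lies on the other strand. The positions are chr1:35769965-35769994 (minus) for CLSPN, chr1:241848197-241848226 (plus) for EXO1, chr9:95317737-95317766 (minus) for FANCC, chr3:10026424-10026453 (plus) for FANCD2, chr2:47783137-47783166 (plus) for MSH6, chr3:133661930-133661959 (minus) for TOPBP1 and chr7:152676102-152676131 (minus) for XRCC2.
CLSPN: actctggctggGCGGGAAAgcaagaacagc
EXO1: aaaggtcagccTTTCGCGCgctgtgtaggc
FANCC: ttcgtcggaatTTTCCCGCgacgccgcggg
FANCD2: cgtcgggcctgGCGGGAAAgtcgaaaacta
MSH6: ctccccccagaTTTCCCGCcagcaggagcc
TOPBP1: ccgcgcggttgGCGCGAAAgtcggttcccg
XRCC2: tggcgttggtgGCGGGAAAgttgagtctct
FANCC holds a further copy, TTTCGCGC on the other strand, upstream of the one printed. The 4 sequences of CLSPN, FANCD2, TOPBP1 and XRCC2 carry the motif on the strand opposite to the gene, as GCGGGAAA or GCGCGAAA, and EXO1, FANCC and MSH6 carry it on the gene's strand. The cell-cycle homology words TTTGAA and TTCGAA, searched for in the same windows, occur in 4 of the 32 members (12.5%), beside 19.5% of genes. These 4 are ATM, BRIP1, FANCC and UBE2T, of which 3 fell and 1 rose in Huh7 and 2 passed in the difference. A match shows the letters only; binding of a factor was not measured. BRCA1, RAD54L and RAD51AP1 hold none of the E2F forms in the window, which says only that these letters are not there.

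With the control siRNA the 35 genes differed between the lines about as often as all features did. In HCCLM3 si-NC against Huh7 si-NC, 14 of the 35 were higher, 15 were lower and 6 did not pass, where 41.6% of all features were higher and 43.6% lower. This comparison uses the same si-NC libraries as the knockdown comparisons. The genes lowest in HCCLM3 relative to Huh7 were BRCA2 (-1.99 ± 0.07), FANCD2 (-1.38 ± 0.05), BLM (-1.37 ± 0.07), CLSPN (-1.16 ± 0.05) and FANCI (-0.91 ± 0.04). The genes highest were FANCC (2.03 ± 0.08), NBN (1.46 ± 0.04), RAD54B (1.24 ± 0.13), ATR (1.22 ± 0.04) and RBBP8 (1.04 ± 0.05). FANCC, a core complex subunit, stood at 7.28, 7.91 and 7.77 CPM in Huh7 si-NC and 32.1, 31.5 and 30.4 CPM in HCCLM3 si-NC, with 5.69, 6.96 and 6.77 and 29.6, 27.8 and 29.2 CPM after the knockdown. The gap between the lines in FANCC was far larger than any change within them. Of the role groups, FANCD2, FANCI and BRIP1 were all lower in HCCLM3, and of the resection genes EXO1, RBBP8, NBN and RAD50 were higher and BLM lower. The RAD50 call was lost without HCCLM3 si-NC replicate 1 (0.0516) and with limma on FPKM (0.0507 to 0.0657 over 3 settings); the MSH6 call was lost with limma on FPKM (0.0889 to 0.120 over 3 settings).

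Compared per length, in FPKM, UBE2T was the most abundant of the 35 in both lines, at 46.3 ± 3.03 in Huh7 si-NC and 54.3 ± 2.18 in HCCLM3 si-NC (mean ± SD, n = 3). In Huh7 si-NC RAD51AP1 (28.8 ± 1.07), FANCI (28.3 ± 1.12), MSH6 (21.8 ± 0.321), TOPBP1 (21.0 ± 0.887) and FANCD2 (20.0 ± 0.661) came next; RAD51AP1 and FANCI did not differ beyond their spread, nor did MSH6 and TOPBP1 or TOPBP1 and FANCD2. In HCCLM3 si-NC NBN (34.6 ± 0.307), TOPBP1 (26.7 ± 1.04), RBBP8 (25.8 ± 1.25), MSH6 (24.1 ± 0.646) and RAD51AP1 (22.7 ± 0.822) came next; after NBN each of these overlapped its neighbour within 1 SD. The lowest levels were those of FANCC in Huh7 (1.56 ± 0.0276) and BRCA2 in HCCLM3 (1.11 ± 0.0920). BRCA1 stood at 8.13 ± 0.646 in Huh7 and 8.56 ± 0.147 in HCCLM3.

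**Figure D3:**
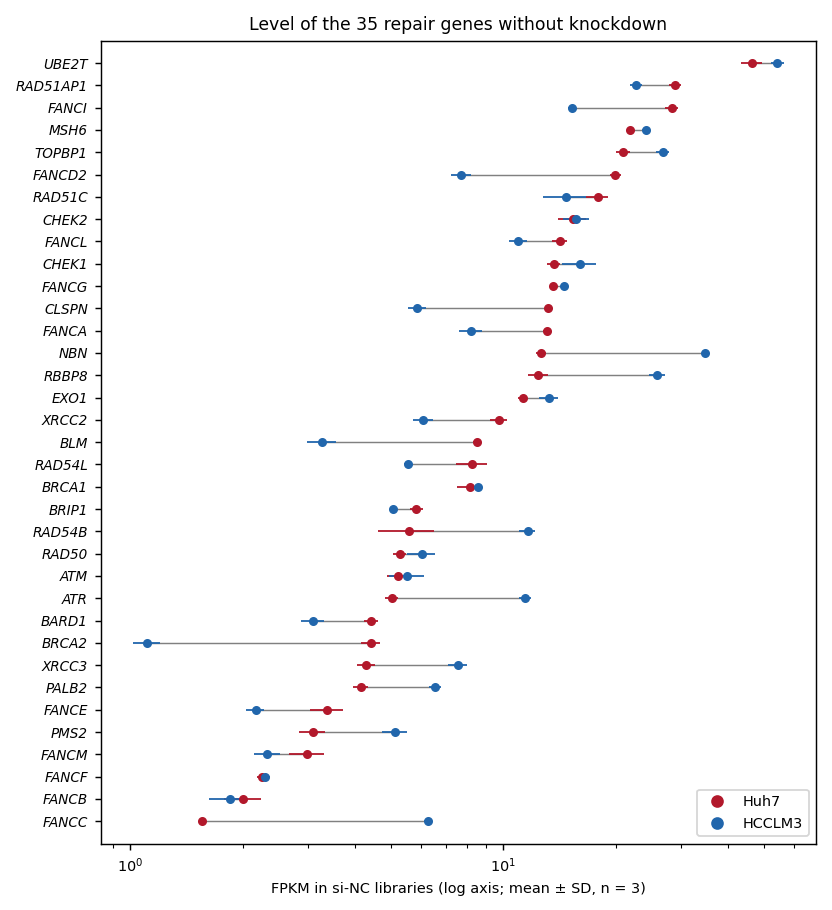
Mean FPKM ± SD of each of the 35 genes in the si-NC libraries of Huh7 (red) and HCCLM3 (blue), 3 libraries each, on a log axis, ordered by the Huh7 mean, with a grey line joining the lines' means. BRCA2, FANCD2 and BLM lie further right in Huh7, FANCC, NBN and ATR lie further right in HCCLM3, and UBE2T is highest in both.

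Other genes of the same pathways were called lower more often than higher in Huh7. For this and the lists that follow, 15.1% of all features fell and 16.3% rose in Huh7. In HCCLM3 15.1% of all features rose and 15.5% fell. Of 42 further genes tested from a homologous recombination list, 14 fell, 3 rose and 25 did not pass in Huh7 (median -0.06). In HCCLM3 10 of them rose and none fell (median 0.07). That list is broad and also holds POLQ, the polymerase of microhomology-mediated joining, which fell by 0.61 in Huh7. From the same list MDC1, a scaffold at broken ends, fell by 0.41 in Huh7 and rose by 0.30 in HCCLM3. Of 17 further Fanconi genes, 7 fell and 0 rose in Huh7 and 1 rose and 1 fell in HCCLM3; USP1, which removes ubiquitin from FANCD2, fell by 0.41 in Huh7. The 15 further mismatch repair genes gave 9 falls and 1 rise in Huh7 and 3 rises and 0 falls in HCCLM3, LIG1 falling by 0.39 in Huh7 and the polymerase subunit POLD4 rising by 0.73. Of 16 further checkpoint genes, 10 fell and 2 rose in Huh7 and 3 rose and 2 fell in HCCLM3. WEE1, the kinase that restrains CDK1, fell in both lines, by 0.78 in Huh7 and 0.50 in HCCLM3, while the phosphatase CDC25A fell by 0.75 in Huh7 and ETAA1, an activator of ATR, rose in both (0.35 ± 0.07 and 0.54 ± 0.08).

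In end joining without homology, 2 of 12 genes fell and 1 rose in Huh7, and 3 rose and 1 fell in HCCLM3. Among 22 nucleotide excision repair genes 7 rose and 1 fell in Huh7, and 9 rose and 1 fell in HCCLM3. Among 21 base excision repair genes 9 fell and 2 rose in Huh7, and 4 fell and 2 rose in HCCLM3, where TDG, a thymine DNA glycosylase, fell in both lines, by 0.96 in Huh7 and 1.14 in HCCLM3. The difference between these lists and the 35 genes was not tested.

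Genes of replication forks and of mitosis, which mark proliferating cells, were mostly lower in Huh7 and more often higher than lower in HCCLM3. Of 26 replication fork genes 23 fell and 0 rose in Huh7 (median -0.36), and 8 rose and 4 fell in HCCLM3 (median 0.09); the difference passed above 0 for 23 of 26. Of 24 mitosis genes 23 fell in Huh7 (median -0.39) and 14 rose and 0 fell in HCCLM3 (median 0.14), and the difference passed above 0 for 24 of 24. Over all features the difference passed above 0 for 9.6% and below 0 for 11.3%. The mitotic kinase CDK1 fell by 0.77 in Huh7, and CENPF, a kinetochore protein, rose by 0.50 in HCCLM3. The summed mitosis level was 3651 to 3828 CPM in Huh7 si-NC and 2817 to 2924 CPM with si-circASH2, and 3714 to 3789.9 and 4098 to 4204 CPM in HCCLM3. The part of proliferation in the changes of the 35 genes was not tested.

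Some markers of other cell types passed the test as well. Of 10 fibroblast markers 7 could be tested, and 4 rose in Huh7 and 1 in HCCLM3, while none fell. Their sum was 37.9 to 43.3 CPM with si-NC and 59.9 to 61.1 CPM with si-circASH2 in Huh7. In HCCLM3 it was 35.9 to 38.4 and 49.6 to 53.9 CPM. FAP and POSTN were at 0 in all 12 libraries. Most of the sum was COL1A2 in Huh7 (means 24.4 and 38.9 CPM, si-NC first) and LUM in HCCLM3 (34.3 and 48.4 CPM). COL3A1, counted as a rise in Huh7, had means of 0.28 and 0.95 CPM there. Of 9 endothelial markers 4 could be tested, and 1 rose in Huh7 and 3 fell in HCCLM3; their sum was 25.2 to 28.8 and 25.3 to 26.8 CPM in Huh7 and 106 to 114 and 87.2 to 91.9 CPM in HCCLM3, with ERG at 0 in every library. Of 10 leukocyte markers 5 could be tested; 1 rose and 1 fell in Huh7 and none passed in HCCLM3, and CD3E and MS4A1 were at 0 in every library. Their sum was 375 to 410.3 and 318 to 341 CPM in Huh7, nearly all of it LYZ, and 6.80 to 9.42 and 7.12 to 7.79 CPM in HCCLM3. In Huh7 9 of the 17 hepatocyte markers fell and 2 rose, and in HCCLM3 1 fell and 3 rose. The part of these markers in the changes of the 35 genes was not tested.

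**Figure D4:**
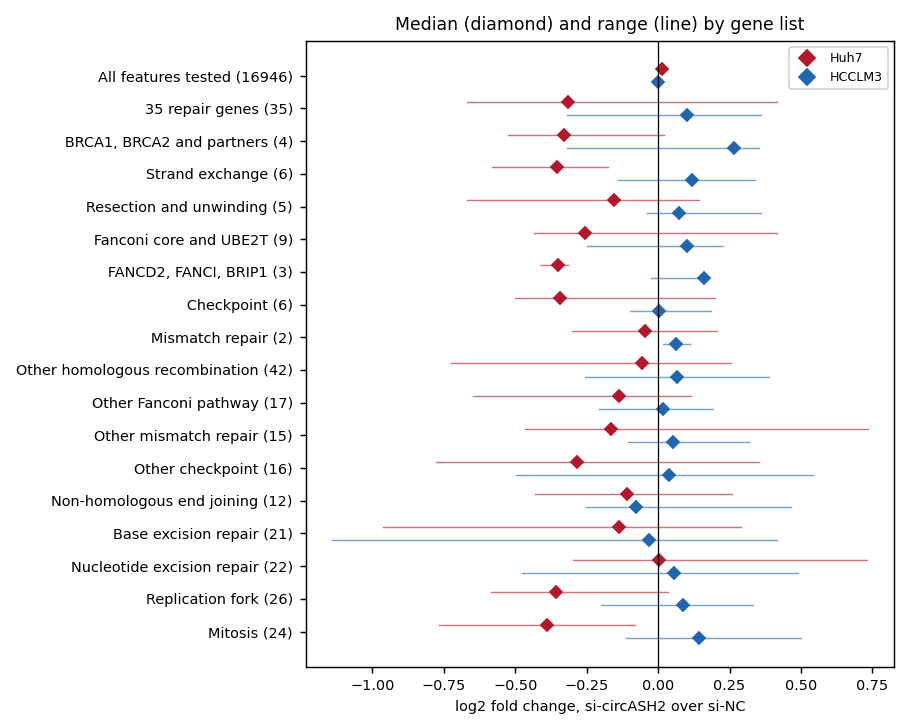
Median (diamond) and range (line) of the log2 fold change after si-circASH2 in Huh7 (red) and HCCLM3 (blue) over the tested genes of each list, with the number of genes in parentheses; the range over all features is not drawn. The median of the 35 genes lies at -0.32 in Huh7 and 0.10 in HCCLM3, beside -0.39 and 0.14 for the mitosis genes.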

How the data were processed

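Total RNA was purified on RNeasy columns and turned into cDNA libraries with a SMARTer kit for mRNA-seq, per the labels' protocols. The authors deposited a table of raw counts and a table of FPKM values (fragments scaled by transcript length and library size) for the 12 libraries. The sources used here do not give the aligner, counter or annotation, and the submitters' processing notes list hg38, GRCm38 and mm10 without a role. The count table holds the value 1 less often (1938 times) than the value 2 (6826 times), so the lowest counts are uncertain.

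Features were kept by filterByExpr (minimum count 10), scaled by TMM and tested with edgeR 4.0.16 (R 4.3.3), robust quasi-likelihood, with 1 coefficient per group over all 12 libraries and Benjamini-Hochberg adjustment over all 16946 features; the call threshold was an adjusted p of 0.05. FPKM values were compared with limma 3.58.1 on log2(FPKM + 1), and with 0.1 in place of 1, as alternatives to the counts; the others were DESeq2 1.42.0, upper quartile factors, no filter, each line alone, a replicate block and leaving out each library. No 2 replicates agreed within sampling noise (chi-square per degree of freedom 3.89 to 8.53).

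The members, gene lists and sequence motifs were chosen with earlier results of these data known. Values of every library are given for the 4 members with the smallest p in each direction in each knockdown, up to 3 in the difference, up to 3 in each direction at baseline, and for BRCA1, BRCA2, FANCD2, ATM, ATR and CHEK1; up to 3 genes in each direction were eligible from each other list. Sequences came from RefSeq promoters (GRCh38.p14) and GENCODE 29 3′ UTRs (GRCh38), whose coordinates are not those of the authors' files. The knockdown of the circular RNA itself is not analysed here, since the tables list genes by symbol.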

Additional observations from a re-analysis of the deposited data

Results flagged for a closer look

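The response to si-circASH2 differed between Huh7 and HCCLM3 for 20 of the 35 genes by the interaction test (edgeR adjusted p under 0.05). Over all features 9.6% passed above 0 and 11.3% below. In each of the 20 genes the signed log2 fold change was the more positive in HCCLM3, which does not mean a stronger response there. For EXO1, FANCD2, BLM, CHEK1 and MSH6, among others, the gene fell in Huh7 and did not pass in HCCLM3. Among genes of strand exchange and the BRCA complexes the difference was 0.92 for RAD54L, 0.72 for BRCA1, 0.67 for RAD51AP1, 0.61 for BRCA2 and 0.61 for XRCC2. Among Fanconi genes it was 0.65 for FANCG, 0.57 for UBE2T, 0.52 for FANCE, 0.52 for BRIP1, 0.48 for FANCI, 0.39 for FANCD2 and 0.32 for FANCM. The resection genes EXO1, BLM and RBBP8 differed by 0.74, 0.50 and 0.26. The checkpoint genes CLSPN, CHEK1, CHEK2 and TOPBP1 differed by 0.56, 0.44, 0.31 and 0.22, and MSH6 by 0.32. Of the 20, 15 kept their call under every alternative run.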

How the results depend on the processing

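No called member changed direction under any of the 20 alternatives. In Huh7 23 of 28 calls were kept under all of them (22 falls and the rise of FANCF), in HCCLM3 6 of 14 (the rises of BRCA1, RAD51AP1, RAD54L, FANCG and RAD50 and the fall of BARD1), in the difference 15 of 20 and between the si-NC groups 27 of 29. The number that rose in Huh7 was 2 with each line alone, 1 in all 3 FPKM settings and 2 to 5 with 1 library left out. In HCCLM3 7 rose with FPKM over all features above 0, 1 fell in all 3 FPKM settings, and with 1 library left out 1 to 3 fell. The difference passed below 0 for 0 to 1 members with 1 library left out (1, NBN, without Huh7 si-circASH2 replicate 1). The cause of these shifts was not tested.

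The values that changed sign were near 0 and passed in no setting. They were those of XRCC3 in HCCLM3 (0.0012 with DESeq2, 0.0073 with upper quartile factors, 0.0027 alone, 0.0066 and 0.0060 with FPKM), the ATM difference (0.0075 and 0.0080 with FPKM) and, between the si-NC groups, ATM (-0.0089 with DESeq2, -0.020 with upper quartile factors, -0.011 with no filter, -0.00056 alone, -0.00076 with the replicate block), CHEK2 (-0.00029, -0.012 and -0.0027 with the first 3 of these) and FANCF (-1.7e-05 with upper quartile factors). With 1 library left out the ranges were -0.027 to 0.064 for PALB2 in Huh7; -0.065 to 0.066 for XRCC3, -0.056 to 0.0059 for FANCD2, -0.12 to 0.011 for BLM and -0.030 to 0.0012 for NBN in HCCLM3; and -0.047 to 0.062 for ATM, -0.031 to 0.048 for CHEK2 and -0.013 to 0.042 for FANCF between the si-NC groups.

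The replicate numbers did not pair the libraries (same-number correlations within a line from -0.034 to 0.041). A replicate block added XRCC3 (adjusted p = 0.0439) and RAD50 (0.0439) in Huh7 and RAD50 (0.0428) in the difference, and lost FANCM (0.0524) there. The difference could not be fitted with each line alone. With 3 libraries per group an exact permutation test of a single gene cannot go below 0.1.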
